A study of Mus musculus with 24 samples.

Results

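Genes of the cerebellum were followed through bulk RNA sequencing of the mouse medial prefrontal cortex, a tissue in which some of them are nearly silent and others have a steady low level. The members are 10 of the 56750 entries of the count table, found by their symbols. By role, 6 are genes of granule neurons (Cbln3, Cbln1, En2, Gabra6, Fat2 and Neurod1), 3 are genes of Purkinje cells (Pcp2, Slc1a6 and Car8) and 1, Gdf10, is a gene of Bergmann glia. The genes were picked because 1 library, replicate 1 of the group SI_EE (SI_EE 1), carries cerebellar transcripts. The values of that library therefore chose the members, and they are given here as a description with no test. Tests between groups leave that library out.

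Granule neurons are the small, very numerous glutamatergic neurons of the cerebellar cortex, and their axons, the parallel fibres, form synapses on Purkinje cells. Purkinje cells are large GABAergic neurons and the sole output of the cerebellar cortex. Bergmann glia are astrocytes whose processes surround the Purkinje dendrites. The prefrontal cortex holds none of these cells, although some of the genes are also used by cortical neurons.

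Each of the 24 libraries was labelled medial prefrontal cortex and 5xFAD, a mouse line in which the neuronal Thy1 promoter drives human transgenes with familial Alzheimer's disease mutations. The libraries formed 6 groups of 4: GH_Con (treatment label control), SI_Con (treatment label SI), GH_EE and SI_EE (both EE), and GH_WT and SI_WT (both WT). The series title names social isolation and an enriched environment, which SI and EE match, and resocialization. What GH and WT stand for is not given in the sources used here, and the WT arms carry the genotype label 5xFAD as well. Ages are likewise not given there. No label states that libraries of a group came from separate mice, so every p-value covers the spread between libraries, which may be technical.

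Library SI_EE 1 stands apart from the other 23 over the whole table. Of 15567 genes with a mean CPM (counts scaled to library size) of at least 1, it was above all 23 other libraries for 3126 (20.1%) and below all of them for 3209 (20.6%), while the median gene stood at 0.989 times the median of the 23. Genes of forebrain pyramidal neurons summed to 1796 CPM in SI_EE 1 against 4815 to 6535 in the others, so cortical transcripts were still present in it. Its total of 34968646 counts lay within the range of the series, 33683587 to 51274917. In bulk RNA, fewer cells of a type and less RNA per cell cannot be told apart. Thalamus and habenula genes also varied among the others, from 137 to 741 CPM summed, the highest in GH_WT 4.

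The promoters of Gabra6, Cbln3 and Pcp2 are shown as examples of genes close to 0 outside SI_EE 1. Fat2 was close to 0 as well, and its window is described below but not printed. Pcp2 had 4 RefSeq windows, and the run of a single one is printed. The runs come from RefSeq (GRCm38.p6, the assembly of mm10), are written 5′ to 3′ on the strand of the gene and end where the gene begins. They hold 250 bases for Gabra6 and Pcp2, and 114 for Cbln3, whose annotated gene begins before the RefSeq start. Gabra6 is at chr11:42321073-42321322, Cbln3 at chr14:55884393-55884506 and Pcp2 at chr8:3625548-3625797, all on the minus strand. Capitals mark matches to searched motifs: TGCCAA in Gabra6 and Cbln3, which is TTGGCA on the other strand, the core of sites bound by NFI factors, and CAGATG (an E-box) and AGGTCA (the core of sites bound by nuclear receptors) in Pcp2.
Gabra6: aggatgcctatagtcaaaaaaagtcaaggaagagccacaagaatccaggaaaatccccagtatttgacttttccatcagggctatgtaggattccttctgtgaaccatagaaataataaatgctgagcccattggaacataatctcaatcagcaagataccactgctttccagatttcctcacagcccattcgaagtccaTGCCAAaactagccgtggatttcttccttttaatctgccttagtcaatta
Cbln3: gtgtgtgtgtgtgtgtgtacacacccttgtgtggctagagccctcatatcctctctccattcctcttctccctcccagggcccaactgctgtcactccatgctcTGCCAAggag
Pcp2: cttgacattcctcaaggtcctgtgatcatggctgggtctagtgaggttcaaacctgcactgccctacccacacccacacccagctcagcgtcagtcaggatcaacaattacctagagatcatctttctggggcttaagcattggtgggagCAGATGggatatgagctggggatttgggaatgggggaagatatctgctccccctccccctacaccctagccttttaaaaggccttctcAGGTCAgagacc

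The match began 50 bases before the end of the run in Gabra6 and 10 bases before it in Cbln3. In Pcp2, CAGATG began 100 bases and AGGTCA 12 bases before the start, in a stretch that also holds exon sequence of Pet100 on the opposite strand. Such matches are common: over both strands, TTGGCA occurs in 14.1% of 32851 RefSeq promoter windows of 300 bases, AGGTCA in 16.3%, CAGATG in 17.2% and TAATTA (the homeodomain core) in 5.29%. RefSeq windows matched 7 of the 10 members, and the windows of Neurod1, Slc1a6 and Gdf10 held none of the 4 motifs. Fat2 held AGGTCA on the other strand 31 bases before a start that lies inside the gene. Cbln1, En2 and Car8 had no window.

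Cbln3 encodes a cerebellin made by granule neurons that is secreted together with Cbln1. It was at 859.7 CPM in SI_EE 1 (34446 counts), and in the other 23 libraries the lowest was 0.209, the median 0.492 and the highest 3.2 CPM, in SI_WT 3. The other SI_EE libraries read 0.437, 0.799 and 1.26 CPM, so SI_EE 1 did not resemble the rest of its group. SI_EE 1 was 269 times the highest other library (95% interval 226 to 323, counting error only).

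Gabra6 encodes the alpha6 subunit of the GABA-A receptor, found almost exclusively in granule neurons in the brain. It was at 338 CPM in SI_EE 1 and had 0 counts in 13 of the other 23 libraries, with a highest value of 1.13 CPM in GH_EE 2. SI_EE 1 was 299 times that value (222 to 411). Fat2, a giant protocadherin of parallel fibres, was at 526 CPM in SI_EE 1, with 0 counts in 9 of the others, a median of 0.0567 CPM and a highest value of 1.7 CPM, again in GH_EE 2. Its ratio to the highest other library, 310.0 (244 to 401), was the largest of the 15567 genes, with Gabra6 ranked 2 and Cbln3 ranked 3.

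The other granule members had a level of their own in the remaining libraries. Cbln1, a secreted cerebellin of granule neurons that maintains their synapses on Purkinje cells, was at 603 CPM in SI_EE 1 against 2.57 to 21.1 CPM elsewhere (median 5.63), a ratio of 28.6 to the highest (26.7 to 30.7). En2, a homeobox gene of the midbrain and hindbrain boundary and of the cerebellum, was at 84.9 CPM against 0.234 to 2.12 CPM (median 0.933), a ratio of 40.0 (32.1 to 50.4). Neurod1, a basic helix-loop-helix factor of granule neurons that is also active in cortical excitatory neurons, was at 284 CPM against 8.31 to 16.5 CPM (median 12.6), a ratio of 17.2 (15.8 to 18.7).

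Among the Purkinje members, Pcp2, a modulator of G-protein signalling found in Purkinje cells and retinal bipolar cells, was, like Gabra6 and Fat2, near 0 elsewhere. It was at 239 CPM in SI_EE 1 and at 0 counts in 13 of the other 23 libraries, with a highest value of 2.17 CPM in SI_WT 3, a ratio of 110.1 (89.0 to 138). Car8, a carbonic anhydrase-related protein that binds the Itpr1 calcium channel, had the highest CPM of all 10 members in SI_EE 1, 1053, against 6.97 to 17.7 CPM elsewhere (median 12.3), a ratio of 59.5 (55.2 to 64.2). Slc1a6, the glutamate transporter of Purkinje dendrites, was at 109 CPM against 3.91 to 9.61 CPM (median 6.79), a ratio of 11.4 (10.2 to 12.7), the smallest of the 10. Gdf10, a bone morphogenetic protein family ligand of Bergmann glia, was at 105 CPM against 3.56 to 6.71 CPM (median 5.15), a ratio of 15.6 (13.7 to 17.8).

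**Figure D1:**
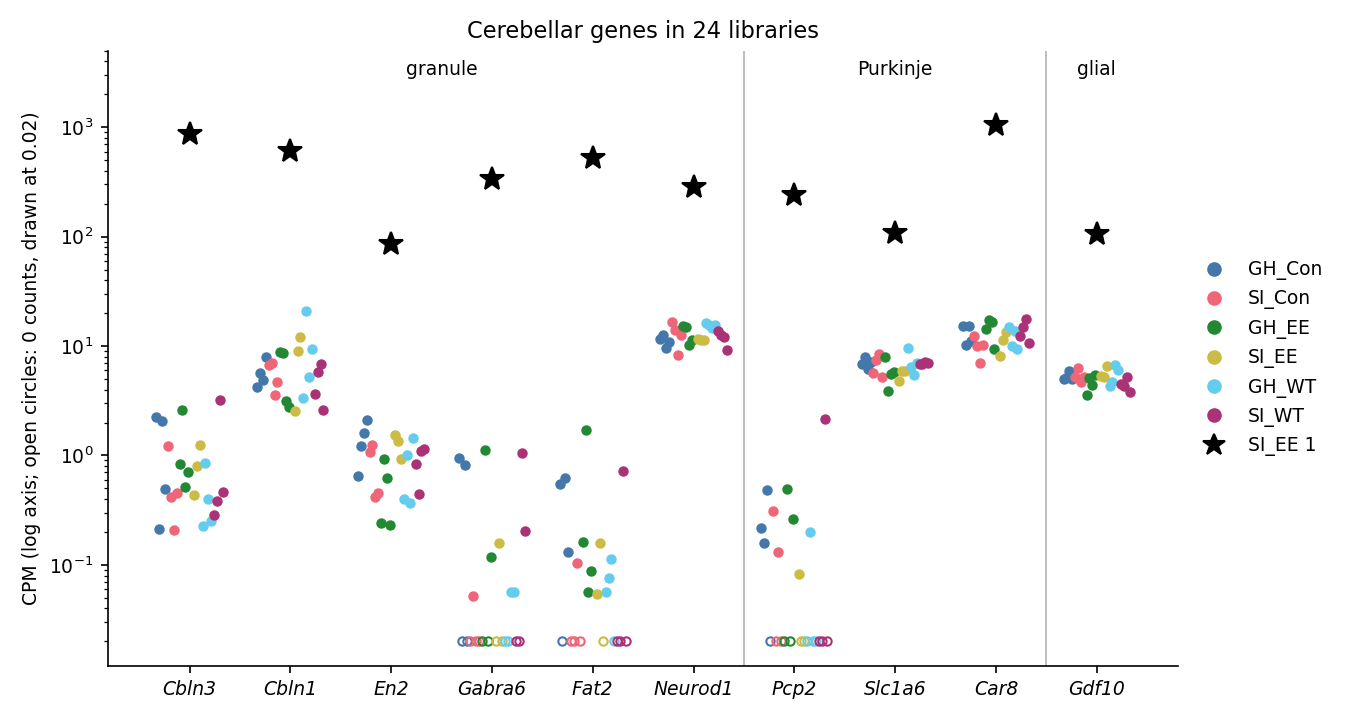
CPM of the 10 members in each of the 24 libraries on a log axis, with SI_EE 1 marked apart from the other 23. SI_EE 1 lies above all other libraries for each member, from 84.9 CPM (En2) to 1053 CPM (Car8), and the other libraries form a band whose height differs by gene.

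All 10 members exceeded 4 times the highest other library, where 123 of the 15567 genes (0.79%) did; the members were chosen on this library, so nothing is read from that count. They ranked 1, 2, 3, 8, 15, 20, 23, 30, 32 and 38 by this ratio, in the order Fat2, Gabra6, Cbln3, Pcp2, Car8, En2, Cbln1, Neurod1, Gdf10 and Slc1a6. Summed by role, the granule members held 2696 CPM, or 0.309% of the counts of SI_EE 1, the Purkinje members 1401 CPM, or 0.161%, and Gdf10 0.012%. In the other libraries the sums ran from 12.6 to 38.5 CPM for the granule members and reached 27.1 CPM for the Purkinje members.

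Levels compared between genes need a correction for transcript length. Per kilobase of annotated exon, Car8 led in SI_EE 1 with 273 CPM per kb, followed by Cbln1 (199), Cbln3 (177), Gabra6 (136), Pcp2 (131) and Neurod1 (104). Slc1a6 stood at 50.8, Fat2 at 36.2 and Gdf10 at 20.1 CPM per kb, with En2 between these last. Fat2, whose annotated exons are long, ranked lower on this scale than in CPM. The medians of the other 23 libraries followed another order on the same scale, led by Neurod1 at 4.61, Car8 at 3.19 and Slc1a6 at 3.16 CPM per kb, with Cbln1 at 1.85, Gdf10 at 0.989, En2 at 0.264, Cbln3 at 0.101 and Fat2 at 0.00391.

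Other genes of the same cells were read in SI_EE 1 by lists written with earlier results of these data known, counting genes with a mean of at least 1 CPM over the 24 libraries. Some passed that minimum through SI_EE 1 alone, so the counts are a description. Of 18 other granule cell genes, 17 were above all 23 other libraries and 10 were at least 4 times the highest of them. Their median ratio to the median of the other libraries was 9.83. Mab21l1 (53.1 against a median of 0.343 CPM), Svep1 (66.2 against 0.568), Il16 (135 against 2.17) and the zinc finger gene Zic1 (712 against 11.8) had the largest ratios to a median above 0, and Barhl2 was at 39.4 CPM against a median of 0.0, which gives no ratio but was counted above the others in the list's median. Rbfox3, a splicing factor of most mature neurons, was at 324 CPM, inside the range of the others (287 to 383), and the cell adhesion gene Cntn2 at 273 CPM against a highest of 246.

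Of 17 other Purkinje cell genes, 14 were above all 23 libraries and 7 at least 4 times the highest, with a median ratio of 4.94. Ppp1r17, a phosphatase inhibitor of Purkinje cells, was at 177 CPM against a median of 0.0535, Arhgef33 at 87.2 against 0.57 and the postsynaptic scaffold Homer3 at 222 against 6.14. Foxp2 was at 18.4 CPM, inside the range of the others (13.9 to 41.4), as was Rora at 174 CPM (62.4 to 217), both of which are also expressed in forebrain neurons or thalamus. Of 7 Bergmann glia genes, 6 were above all 23 and 1, Dao, was at least 4 times the highest, with a median ratio of 2.69. Timp4 was at 126 CPM against a median of 26.3 and Hopx at 78.5 against 19.2.

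Genes of cerebellar interneurons and unipolar brush cells were mixed. Their sum was 424 CPM in SI_EE 1, above the 256 to 405 CPM of the others. Of 7 genes over the minimum level, 2 were above all 23 libraries (Tfap2b, a factor of the GABAergic lineage, at 29.9 against a highest of 1.36 CPM, and Kit at 131 against 49.5), 2 were below all of them (Sorcs3 at 27.0 and Ptprk at 25.5 CPM) and the median ratio was 0.874. Of the list's genes under the minimum level, picked here after their values were seen, Eomes, a factor of unipolar brush cells, was at 16.1 CPM against a highest of 1.04, the glycine transporter gene Slc6a5 at 16.4 against 0.617, Tfap2a at 6.76 against 0.454 and Pax2 at 4.69 against 0.409. Lmx1a, the list's remaining gene under that level, was at 0.25 CPM, inside the range of the others (0.0 to 0.886). At any level, 6 of the 12 genes were above all 23 libraries.

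Genes of neighbouring regions differed by list. The 14 hindbrain genes, 13 of them Hox genes, summed to 0.3 CPM in SI_EE 1, against at most 0.259 CPM elsewhere. Of 3 midbrain and monoamine genes over the minimum level, 0 were above all 23 libraries, with Th at 2.1 CPM (median 1.97) and Tph2 at 1.15 (median 1.06). At any level, 5 of the list's 12 genes were above all 23. The sum over the 12 was 19.7 CPM in SI_EE 1 against 6.02 to 12.9 CPM elsewhere. En1, the relative of En2, was under the minimum level and is named after its values were seen, at 4.87 CPM against a highest of 0.142. So is Otx2, at 4.87 CPM against a highest of 4.43. Of 8 myelin genes 0 were above and 2 below all 23 libraries, of 5 choroid plexus genes 0 and 1, of 3 dentate gyrus genes 0 and 1, and of 8 olfactory bulb genes 1 and 2. The thalamus and habenula genes summed to 751 CPM in SI_EE 1, above the highest of the others, 741 CPM in GH_WT 4. Of 12 such genes, 2 were above all 23 libraries: Calb2, a calcium-binding protein that granule neurons also make, at 365 CPM against a highest of 64.9, and Lhx9 at 20.6 against 15.6. The forebrain genes lay on the other side: of 13 pyramidal neuron genes, 10 were below all 23 libraries, with a median ratio of 0.214, and of 10 striatal genes, 5 were, with a median ratio of 0.136. Neurod2, which is shared by granule and cortical neurons, was the 1 pyramidal gene above all 23, at 125 against a highest of 99.2 CPM. These other cell types move with the members in the same library, and their part in the members' values was not tested.

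**Figure D2:**
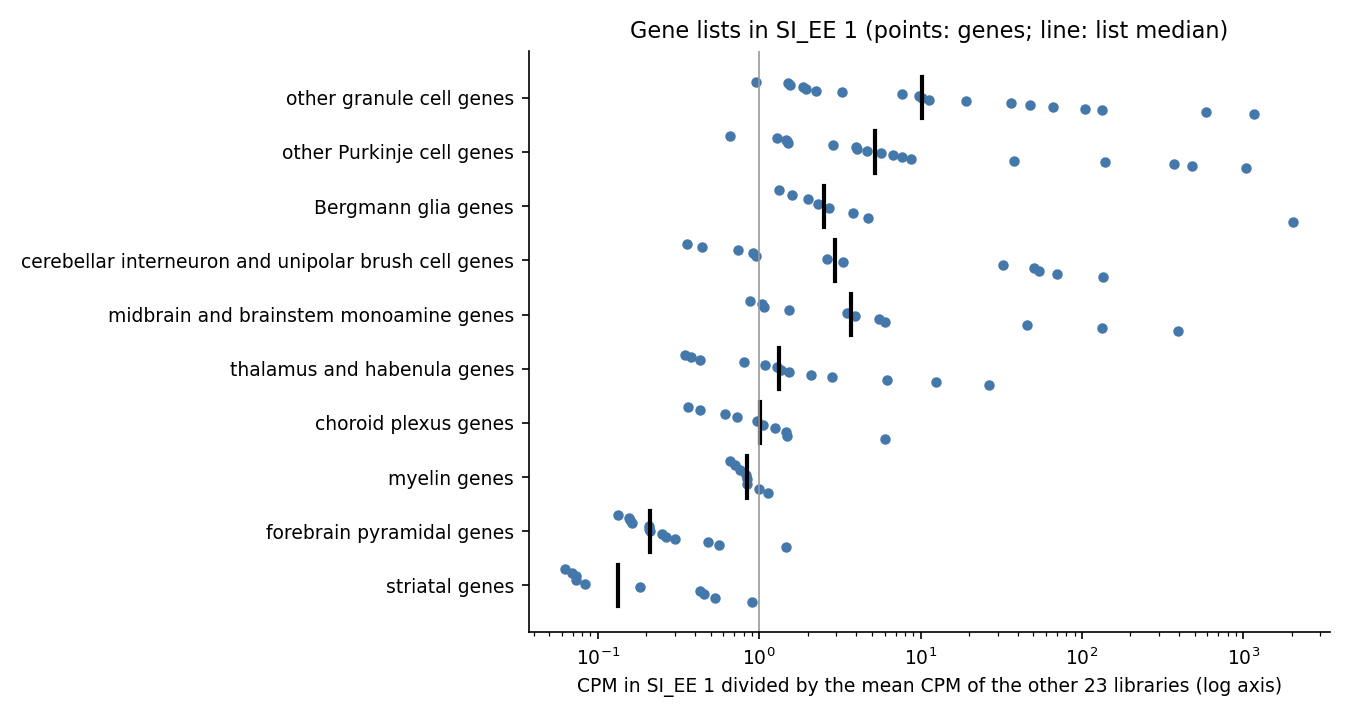
Ratio of CPM in SI_EE 1 to the mean of the other 23 libraries on a log axis, each point a gene of the named list. Points of the granule and Purkinje lists lie mostly above a ratio of 1, while those of the forebrain pyramidal and striatal lists lie mostly below it.

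The genes most like the members, by ratio of SI_EE 1 to the highest of the other 23 libraries and with at least 20 CPM in SI_EE 1, were led by Dao, the D-amino acid oxidase of Bergmann glia, at 55.2 CPM and a ratio of 219. Cnpy1 followed at 305 CPM and 153, Ppp1r17 at 177 CPM and 141, and the kinase gene Nrk at 43.2 CPM and 132. The homeobox genes Uncx (106), Lhx1 (84.5) and Barhl2 (70.2) and Lhx1os (81.4), an entry beside Lhx1 on the opposite strand, came next with Il20rb (78.0), Arhgef33 (72.5), Crtam (66.5), Mab21l1 (65.2), Ltbp2 (54.6), Ptpn22 (46.4) and Il16 (44.3). Lhx1, with its relative Lhx5, is needed for Purkinje cell development. Cnpy1 lies at chr5:28200819-28245806 and is the protein-coding neighbour of En2 (chr5:28165694-28172166), with a gap of 28653 bases and 0 protein-coding genes between them. This likeness rests on 1 library against 23.

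The members Cbln1, Cbln3, Gabra6 and Slc1a6 belong to gene families whose other genes are used in cortex. Among the cerebellins, Cbln3 and Cbln1 were above all other libraries, whereas Cbln2 was at 9.41 CPM, under the lowest of the others (23.4), and Cbln4 at 16.6 CPM, also under the lowest (26.4). Of the GABA-A receptor subunits, Gabra6 and Gabrd, which form extrasynaptic receptors together in granule neurons, were higher in SI_EE 1, Gabrd at 156 CPM against 67.2 to 93.3. Gabra2 (23.7 against 34.6 to 91.1 CPM), Gabra3 (49.4 against 142 to 186), Gabra4 (45.5 against 108 to 175) and Gabra5 (17.7 against 31.1 to 64.3) were under all 23 libraries.

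Among the glutamate transporters, Slc1a6 and Slc1a3, the transporter of Bergmann glia and other astrocytes, were above all 23 libraries, Slc1a3 at 849.7 CPM against 279 to 542. Slc1a2, the main transporter of forebrain astrocytes, was below them at 946 CPM against 1539 to 3702, as were Slc1a1 (52.7 against 104 to 139) and Slc1a4 (43.7 against 52.5 to 77.6). Slc1a5, at 2.17 CPM, lay within the range of the others (1.6 to 4.31). Members of 1 family thus lay on both sides of the other libraries.

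**Figure D3:**
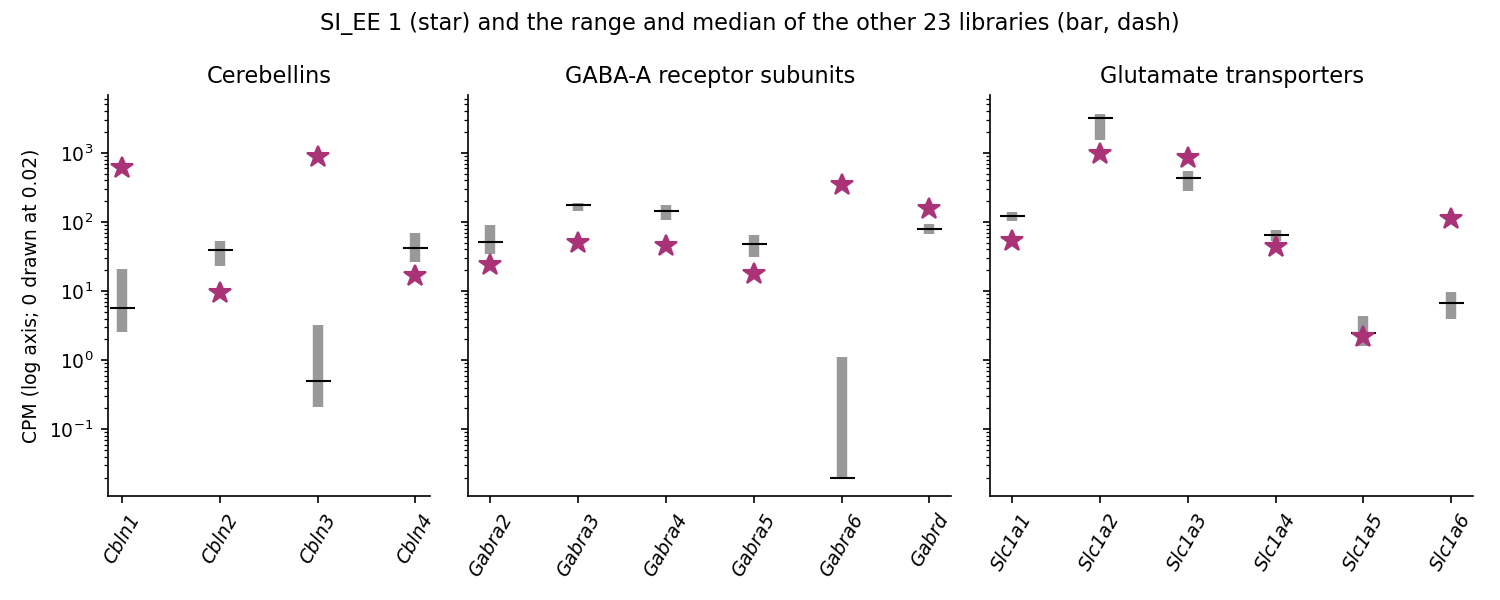
CPM on a log axis of the cerebellin, GABA-A receptor and glutamate transporter genes, with a star for SI_EE 1 and a bar for the range and median of the other 23 libraries. Cbln1, Cbln3, Gabra6, Gabrd, Slc1a3 and Slc1a6 lie above their bars, and Slc1a5 lies inside its own.

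Outside SI_EE 1 the members with silent cortical levels were not evenly spread over the libraries. For Cbln3 the 4 highest of the 23 were SI_WT 3 (125 counts, 3.2 CPM), GH_EE 2 (101 counts, 2.6 CPM), GH_Con 1 (83 counts, 2.26 CPM) and GH_Con 3 (72 counts, 2.05 CPM). The next was SI_EE 4 at 1.26 CPM. The same 4 libraries were the highest for Gabra6, with 41, 44, 35 and 29 counts in that order, and for Fat2, with 28, 66, 20 and 22 counts. They were 3 of the 4 highest for Pcp2 and for Car8, 1 of the 4 for En2, and 0 of the 4 for Cbln1, Neurod1, Slc1a6 and Gdf10.

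These values were small fractions of the level in SI_EE 1. Cbln3 reached 0.372% of it in SI_WT 3, 0.302% in GH_EE 2, 0.263% in GH_Con 1 and 0.239% in GH_Con 3. Gabra6 lay in the same order of size, at 0.31%, 0.335%, 0.282% and 0.244%. Fat2 and Pcp2 divided the libraries differently: Fat2 was at 0.136% in SI_WT 3 and 0.323% in GH_EE 2, and Pcp2 at 0.908% in SI_WT 3 and 0.204% in GH_EE 2. In GH_Con 1 and GH_Con 3, Fat2 was at 0.104% and 0.119%, and Pcp2 at 0.0912% and 0.202%. Per kilobase of annotated exon, Pcp2 was above Fat2 in SI_EE 1 (131 against 36.2 CPM per kb), SI_WT 3 (1.19 against 0.0493), GH_EE 2 (0.267 against 0.117), GH_Con 1 (0.119 against 0.0376) and GH_Con 3 (0.265 against 0.0431). The ratio of Pcp2 to Fat2 was thus larger in SI_WT 3 than in SI_EE 1 and smaller in GH_EE 2. It rests on counts of 28 and 85 for Fat2 and Pcp2 in SI_WT 3 and of 66 and 19 in GH_EE 2. Of the 15 most alike genes, Cnpy1 (78, 47, 35 and 24 counts) and Crtam (24, 6, 7 and 8 counts) had the same 4 libraries as their highest, and Ppp1r17, a Purkinje gene like Pcp2, read 49 counts in SI_WT 3, 31 in GH_EE 2, 4 in GH_Con 1 and 6 in GH_Con 3.

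**Figure D4:**
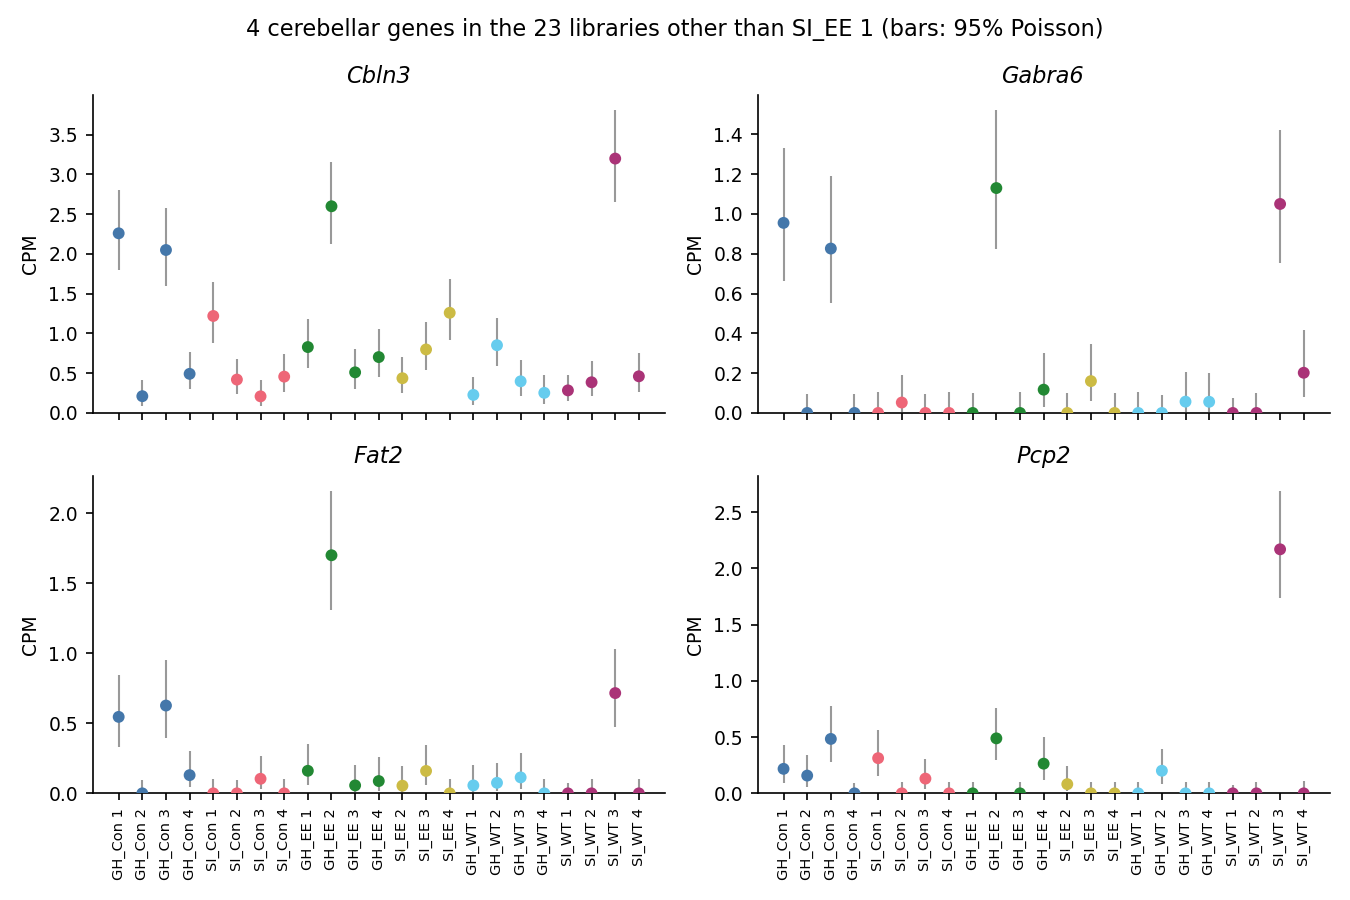
CPM of Cbln3, Gabra6, Fat2 and Pcp2 in the 23 libraries other than SI_EE 1, with exact Poisson 95% intervals that cover counting error. SI_WT 3, GH_EE 2, GH_Con 1 and GH_Con 3 are the highest for Cbln3, Gabra6 and Fat2, and Pcp2 is highest in SI_WT 3 at 2.17 CPM.

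The 4 libraries belong to 3 groups, and group values of these genes had wide errors. Cbln3 was at 1.25 ± 1.05 CPM in GH_Con (SD, n = 4), 0.577 ± 0.445 in SI_Con (n = 4), 1.16 ± 0.967 in GH_EE (n = 4), 0.833 ± 0.414 in SI_EE without SI_EE 1 (n = 3), 0.432 ± 0.29 in GH_WT (n = 4) and 1.08 ± 1.41 in SI_WT (n = 4). Within GH_Con it read 2.26, 0.211, 2.05 and 0.492 CPM, and within SI_WT 0.284, 0.386, 3.2 and 0.461 CPM. The groups overlap, and in SI_WT the SD exceeded the mean. Gabra6 read 0.955, 0.0, 0.826 and 0.0 CPM in GH_Con and 0.0, 0.0524, 0.0 and 0.0 CPM in SI_Con. At the depth of these libraries a library with 0 counts still allows up to 3 counts.

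The members with a steady cortical level were more even. Neurod1 ran from 8.31 to 16.5 CPM over the 23 libraries, Car8 from 6.97 to 17.7, Slc1a6 from 3.91 to 9.61 and Gdf10 from 3.56 to 6.71. Gdf10 was at 5.27 ± 0.445 CPM in GH_Con, 5.34 ± 0.675 in SI_Con, 4.65 ± 0.843 in GH_EE, 5.47 ± 1.1 in GH_WT and 4.44 ± 0.563 in SI_WT (SD, n = 4 each), and at 5.69 ± 0.727 in SI_EE without SI_EE 1 (n = 3). The lowest and highest of these means, in SI_WT and in SI_EE without SI_EE 1, were further apart than the SD of either group, a pair that was not among the comparisons tested.

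Cbln1 had a different exception. It was at 21.1 CPM in GH_WT 2, 12.2 in SI_EE 4 and 9.34 in GH_WT 4, with a median of 5.63 over the 23. Cbln1 is also made in parts of the thalamus, and thalamus and habenula genes summed to 533 CPM in GH_WT 2 and 741 in GH_WT 4, against a median of 220.3 CPM, while Cbln3 in GH_WT 2 was 0.852 CPM. The part of these cells in the value of Cbln1 was not tested.

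**Figure D5:**
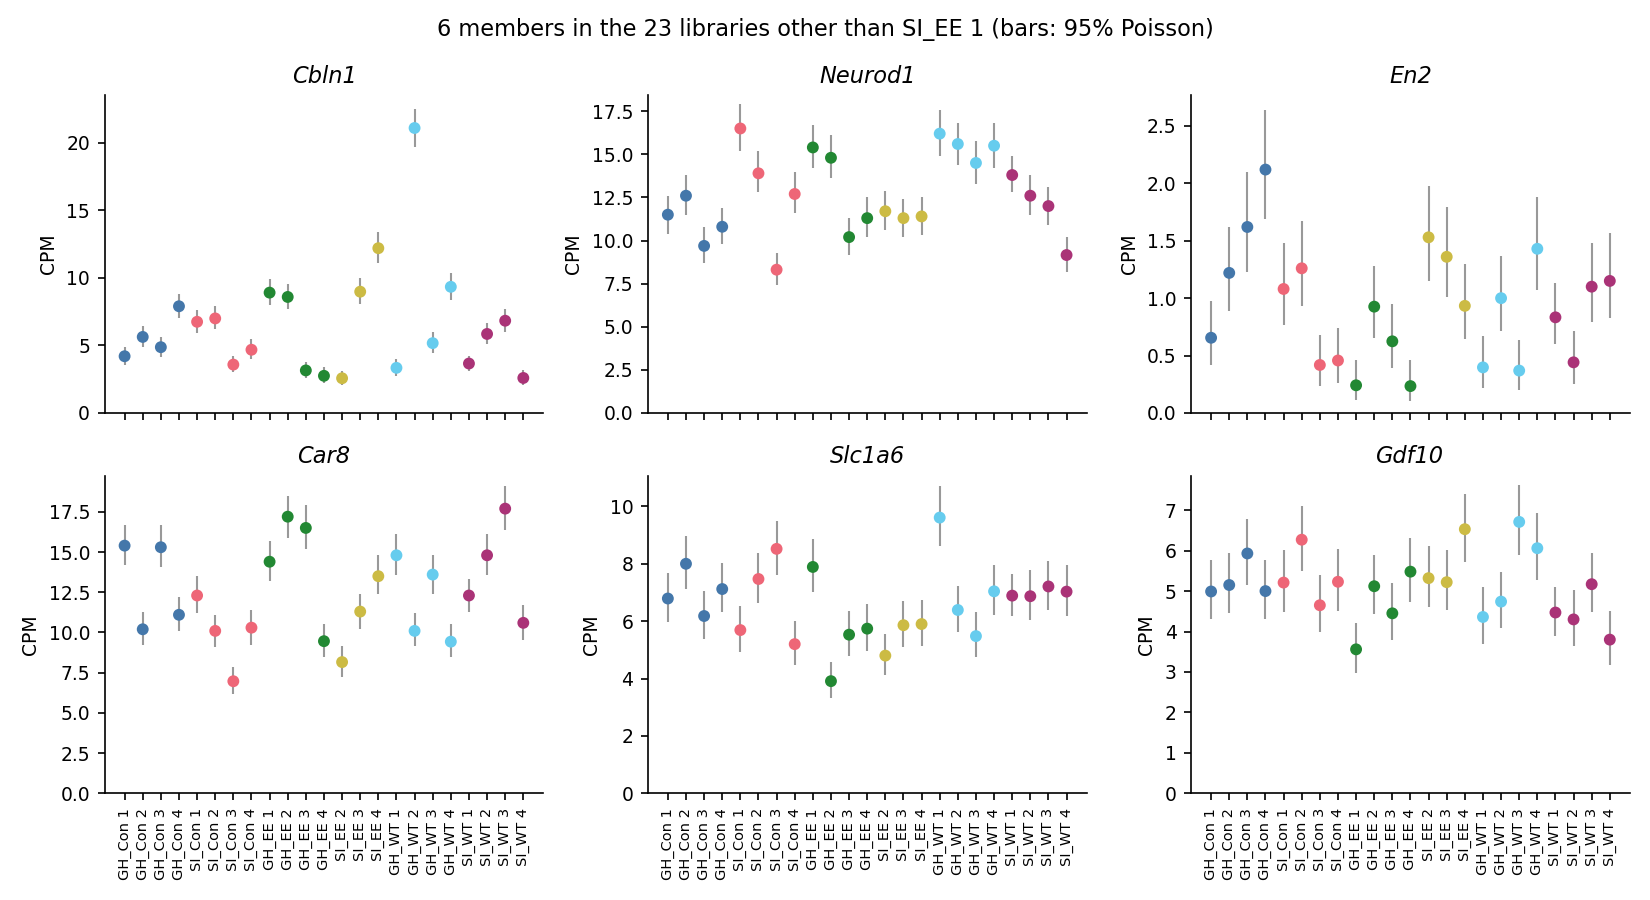
CPM of Cbln1, Neurod1, En2, Car8, Slc1a6 and Gdf10 in the 23 libraries other than SI_EE 1, by group. Cbln1 in GH_WT 2 (21.1 CPM) is the highest point of its panel, and the groups overlap for most gene and group pairs.

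With SI_EE 1 left out, 7 comparisons of groups were made over 20718 genes by edgeR's quasi-likelihood test, with Benjamini-Hochberg adjustment over all of them. All 10 members passed the filter on low counts, Gabra6, Fat2 and Pcp2 through a few libraries each. In each of the 7 comparisons 0 of the 10 members passed an adjusted p of 0.05, with DESeq2 as well. Over all genes the share called was 0.0145% for SI_Con against GH_Con (3 genes), 0.00483% for GH_EE against GH_Con, for SI_EE against SI_Con and for SI_EE against GH_EE (1 gene each), and 0.0% for GH_WT against GH_Con, SI_WT against SI_Con and SI_WT against GH_WT. At an unadjusted p under 0.05, 1 of the 10 members passed in each comparison other than SI_EE against SI_Con, where 0 did. Of all 20718 genes, 2176 did for SI_EE against SI_Con, 1761 for SI_Con against GH_Con and 1684 for GH_EE against GH_Con. The other counts were 1495 (SI_WT against GH_WT), 1011 (SI_WT against SI_Con), 950 (GH_WT against GH_Con) and 770 (SI_EE against GH_EE). The comparisons share control libraries and are not independent of each other.

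The members with an unadjusted p under 0.05 were Gabra6, En2, Neurod1 and Car8. Over 10 members and 7 comparisons, 3 of 70 pairs of groups did not overlap. Over all genes with a mean CPM of at least 1 over the 24 libraries the share was 4.68% for SI_Con against GH_Con, 9.73% for GH_EE against GH_Con, 4.46% for GH_WT against GH_Con, 9.4% for SI_EE against SI_Con, 1.82% for SI_WT against SI_Con, 6.51% for SI_EE against GH_EE and 3.66% for SI_WT against GH_WT. Cbln3, En2, Gabra6, Fat2 and Pcp2 averaged under 1 CPM without SI_EE 1 and are in that set only through it. Gabra6, Fat2 and Pcp2 also had 0 counts in 9 to 13 libraries, so their groups could hardly fail to overlap. The share is therefore not a like background for the members, and nothing is read from their count. For Neurod1, the 4 GH_WT libraries (14.5 to 16.2 CPM) did not overlap the 4 GH_Con libraries (9.69 to 12.6 CPM), with a log2 fold change of 0.47 (SE 0.17, edgeR adjusted p = 1) where 0.0% of all genes were called. In SI_WT against GH_WT, Neurod1 stood at 9.16 to 13.8 CPM against 14.5 to 16.2 CPM, a log2 fold change of -0.38 (SE 0.17, edgeR adjusted p = 0.658). The GH_WT libraries were the higher ones in both, and they enter both comparisons.

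For En2, SI_EE without SI_EE 1 (0.933, 1.36 and 1.53 CPM) lay just above GH_EE (0.241, 0.926, 0.624 and 0.234 CPM), a log2 fold change of 1.32 (SE 0.56, edgeR adjusted p = 1) where 0.00483% of genes were called. In GH_EE against GH_Con, whose libraries overlap (GH_Con 0.655 to 2.12 CPM), the log2 fold change of En2 was -1.46 (SE 0.53, edgeR adjusted p = 0.469). For Car8 in SI_WT against SI_Con it was 0.47 (SE 0.22, edgeR adjusted p = 1), with 10.6 to 17.7 CPM against 6.97 to 12.3 CPM. The Gabra6 value in SI_Con against GH_Con, -4.73 (SE 2.05, edgeR adjusted p = 0.527), came from GH_Con 1 and GH_Con 3, since GH_Con 2 and GH_Con 4 had 0 counts.

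In SI_Con against GH_Con the median log2 fold change was -0.60 over the 10 members and -0.01 over all genes tested. In the other comparisons the medians over members and over all genes were -0.14 and -0.02 (GH_EE against GH_Con), -0.47 and -0.002 (GH_WT against GH_Con), 0.33 and 0.01 (SI_EE against SI_Con), 0.30 and 0.002 (SI_WT against SI_Con), -0.29 and -0.001 (SI_EE against GH_EE) and 0.17 and -0.01 (SI_WT against GH_WT). Medians over the 10 members mix sparse genes with steady ones, and 0 members were called in these comparisons.

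The values of SI_EE depended on library SI_EE 1. With all 24 libraries the fitted log2 fold change of SI_EE against SI_Con was 12.29 for Gabra6, 12.08 for Fat2, 9.05 for Pcp2 and 8.55 for Cbln3, where without it these were 1.75, 1.31, -1.91 and 0.52. For Cbln1 it was 4.83 against 0.52, for En2 4.78 against 0.66, for Car8 4.78 against 0.14, for Neurod1 2.63 against -0.18, for Gdf10 2.51 against 0.08 and for Slc1a6 2.23 against -0.29. In the fit with all 24 libraries 0 members were called. Without SI_EE 1, 3 of the 10 members had a negative value in this comparison (Pcp2, Neurod1 and Slc1a6). In SI_EE against GH_EE the values with SI_EE 1 ran from 2.46 (Slc1a6) to 8.28 (Pcp2), and without it 7 of the 10 were negative: Fat2 at -2.75, Pcp2 at -2.66, Gabra6 at -2.48, Cbln3 at -0.49, Car8 at -0.40, Neurod1 at -0.18 and Slc1a6 at -0.07.

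Some members share their position with other entries, and the use of strand in the counting is not given in the sources used here, so their reads cannot be told apart with certainty. Cbln1 overlaps Gm2694 on the opposite strand, which was at 42.1 CPM in SI_EE 1 against at most 2.72 elsewhere. Neurod1 overlaps Cerkl on the same strand, at 10.5 CPM against at most 2.98. Pcp2 overlaps Pet100, an assembly factor of a mitochondrial enzyme, on the opposite strand, and Pet100 was at 11.3 CPM in SI_EE 1, within the range of the others (median 9.47, highest 14.5). Counts of Pcp2 at 0 in 13 libraries stood beside Pet100 at its usual level.

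In GENCODE M21 on mm10, the genes lie as follows: Cbln3 at chr14:55878913-55884392 and Gdf10 at chr14:33923587-33937983, Gabra6 at chr11:42306437-42321072 and Fat2 at chr11:55250609-55336564, Cbln1 at chr8:87468405-87472609 and Pcp2 at chr8:3623371-3625545, Neurod1 at chr2:79452521-79456751, Car8 at chr4:8143362-8239041, Slc1a6 at chr10:78780496-78814765 and En2 as given above. Slc1a6, En2 and Gdf10 are on the plus strand and the others on the minus strand.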

How the data were processed

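Per the labels' protocols, total RNA was prepared with Trizol and column clean-up with DNase, and sequenced as Illumina libraries. The authors deposited 1 table of raw read counts (whole numbers, judged from the values). Per the submitters' processing notes the build is mm10. The aligner, counter, annotation release and strand setting were not given in the sources used here. Of 56750 entries, 52073 (91.8%) had a symbol, and entries without one held 0.695% of reads. From 4 to 12, even counts were more frequent than the odd count below each (16883 values of 4 against 14983 of 3), though not at 2 against 1 (26758 against 28929), so reads may not be independent molecules, and intervals cover counting error alone. No 2 libraries were identical (0 pairs).

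CPM used TMM-scaled totals over 24 libraries. Groups were compared with edgeR 4.0.16 (limma 3.58.1, R 4.3.3; TMM, filterByExpr, robust quasi-likelihood fit, no covariate) on 23 libraries without SI_EE 1, since that library chose the members. DESeq2 1.42.0, all 24 libraries, no filter, a replicate block and leaving out single libraries were alternatives. Positions are from GENCODE M21 and promoters from RefSeq (GRCm38.p6). The fit was tested on simulated counts for SI_Con against GH_Con (20342 genes), with changes placed only in genes averaging at least 1 CPM. It recovered 73 of 100 genes changed by 1 on the log2 scale and 98 of 100 changed by 2, with 13 false calls. Cbln3 (0.892 CPM), En2 (0.931), Gabra6 (0.2), Fat2 (0.199) and Pcp2 (0.196) averaged less over the 23 libraries. The recovery therefore does not cover these members. The members and lists were chosen with earlier results of these data known. Named besides the members were the 15 genes most like them (at least 20 CPM in SI_EE 1, no Gm or Rik symbol). Up to 4 highest and 2 lowest genes per list, by ratio to the median of the 23, and the 3 families were also named. Eomes, Slc6a5, Lmx1a, Neurod2 and the genes named for a count were picked after their values were seen. Values of some genes that this rule or the families would name are not reported here.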

Additional observations from a re-analysis of the deposited data

Results flagged for a closer look

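Within each group of 4 libraries, the highest or lowest library was set against the others by the gap to its nearest neighbour as a share of the group's range, on log2 CPM values. Of 60 gene and group pairs, 14 had a library that stood apart. Chance gives about 1 in 20 for values without ties, a rate that applies to neither set below. Of the 14, 9 were SI_EE 1 in SI_EE, which follows from how the genes were chosen: Cbln3 at 859.7 CPM, En2 at 84.9, Gabra6 at 338, Fat2 at 526, Neurod1 at 284, Pcp2 at 239, Slc1a6 at 109, Car8 at 1053 and Gdf10 at 105 CPM.

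The other 5 lay in groups without SI_EE 1. In SI_WT, library SI_WT 3 stood apart for Pcp2 at 2.17 CPM and for Fat2 at 0.716 CPM, with the other libraries of the group at 0.0 CPM for both. Gabra6 in SI_Con 2 was at 0.0524 CPM, Fat2 in SI_Con 3 at 0.104 CPM and Pcp2 in GH_WT 2 at 0.201 CPM, each with the other 3 libraries of its group at 0 counts; these are 2, 4 and 8 counts. In all 5 the gap share is at its largest because the other 3 libraries are tied at 0 counts.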

How the results depend on the processing

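No member was called in any of 89 comparisons read from the alternative fits, several of them from the same fit. Genes called over the whole table were few and moved with most choices. With all 24 libraries, 0 genes were called for SI_Con against GH_Con and for SI_EE against SI_Con. With no filter, 0 were called for SI_EE against GH_EE. With the replicate number as a block, 0 were called for SI_Con against GH_Con, SI_EE against SI_Con and SI_EE against GH_EE; same-numbered libraries did not deviate together (55 pairs, correlation -0.27 to 0.18, 5 over 0.1; 6 of 23 libraries correlated best with their own number), so the numbers were not taken as pairs. DESeq2 called 75 genes for SI_Con against GH_Con, 46 for GH_EE against GH_Con, 13 for GH_WT against GH_Con, 49 for SI_EE against SI_Con, 6 for SI_WT against SI_Con, 11 for SI_EE against GH_EE and 26 for SI_WT against GH_WT. Also leaving out GH_Con 1, GH_Con 3, GH_EE 2 and SI_WT 3, a choice made after seeing the data, gave 0 for SI_Con against GH_Con, GH_EE against GH_Con, SI_EE against SI_Con and SI_EE against GH_EE. Leaving out 1 library at a time gave 0 to 10 genes for SI_Con against GH_Con (10 without SI_Con 2), 1 to 2 for GH_EE against GH_Con (2 without GH_Con 4), 0 to 2 for SI_EE against SI_Con and for SI_WT against SI_Con (2 without SI_Con 3 in both), 0 to 1 for SI_EE against GH_EE and 0 to 13 for SI_WT against GH_WT (13 without GH_WT 1). The cause was not tested.

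On raw totals the ratio of SI_EE 1 to the highest other library was 32.6 for Cbln1, 20 for Neurod1, 13.3 for Slc1a6, 68.9 for Car8 and 18.2 for Gdf10, above the intervals given; the other ratios stayed within theirs, as did those on DESeq2 size factors. Gabra6, Fat2 and Pcp2 had 0 counts in 9 to 13 libraries, so their group values depend on a few libraries.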
